A study of Mus musculus with 6 samples.

Results

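The genes described here are 9 that carry the timing signal of the circadian clock out to the cell or modify clock proteins: Ciart, Usp2, Wee1, Nampt, Csnk1d, Csnk1e, Fbxl21, Timeless and Sirt1. They were chosen by name, and every array probe whose RefSeq accession belongs to one of them was taken, which gave 13 probes of the 9 genes among 20659 named genes on the array. The samples were 6 preparations of total RNA from the heart ventricles of 21-week-old female C57BL/6N mice, each on its own Agilent array labelled with the dye Cy3. In the sleep fragmented group (3 arrays) sleep had been disrupted for 5 weeks, and in the control group (3 arrays) the mice had been left alone. The labels used here do not say at what clock time the hearts were taken. Nor do they say whether a sample is 1 animal or a pool, so the p-values cover the spread among these preparations, part of which may be technical.

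In the mammalian clock the transcription factors Clock and Bmal1 (gene Arntl) bind E-box DNA and switch on the Period and Cryptochrome genes, whose proteins enter the nucleus and repress Clock and Bmal1. Genes with the same E-boxes, or with the D-box element bound by Dbp, Tef and Hlf, follow the cycle as clock outputs, and much of the rhythmic transcription of the heart is of this kind. The casein kinases 1 delta and epsilon set the speed of the loop by phosphorylating Period proteins, F-box proteins direct the breakdown of Cryptochromes, and the NAD-dependent deacetylase Sirt1 acts on clock proteins with NAD that Nampt helps to supply.

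Before the values, the DNA upstream of these genes was read from RefSeq promoter windows (mouse build GRCm38.p6), of which 10 matched 7 of the 9 genes; Wee1 and Csnk1d had none. In the 250 bases before the annotated start, the E-box letters CACGTG, the D-box letters TTATGTAA and TTACGTAA and the nuclear receptor element AGGTCA were searched on both strands, and no matches overlapped. The Ciart, Sirt1 and Timeless windows are shown because they hold E-box or D-box letters, which are in capitals. The Ciart window is chr3:95882229-95882478, the Sirt1 window chr10:63339036-63339285 (both on the minus strand) and the Timeless window chr10:128237816-128238065 (plus strand).
Ciart: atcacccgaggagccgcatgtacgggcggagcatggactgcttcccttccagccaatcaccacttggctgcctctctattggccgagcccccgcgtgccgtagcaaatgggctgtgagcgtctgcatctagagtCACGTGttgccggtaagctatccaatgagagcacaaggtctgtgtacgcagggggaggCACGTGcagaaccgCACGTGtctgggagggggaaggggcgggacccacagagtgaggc
Sirt1: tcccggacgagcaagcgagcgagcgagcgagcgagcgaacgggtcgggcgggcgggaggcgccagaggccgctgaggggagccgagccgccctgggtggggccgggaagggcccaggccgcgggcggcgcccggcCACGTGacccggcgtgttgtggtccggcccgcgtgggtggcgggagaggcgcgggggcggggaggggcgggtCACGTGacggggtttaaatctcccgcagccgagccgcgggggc
Timeless: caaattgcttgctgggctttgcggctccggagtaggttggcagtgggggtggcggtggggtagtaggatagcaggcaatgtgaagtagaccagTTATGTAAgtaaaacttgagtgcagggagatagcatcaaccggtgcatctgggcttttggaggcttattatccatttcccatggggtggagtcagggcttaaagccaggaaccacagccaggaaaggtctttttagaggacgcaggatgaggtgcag
Ciart held 3 E-boxes, starting 116, 58 and 44 bases before the start, and Sirt1 held 2, at 115 and 43 bases. Over 32851 promoter windows of that length, 6.02% had at least 1 E-box, 0.429% at least 2 and 0.0609% (20 windows) at least 3. Timeless had 1 TTATGTAA at 157 bases, which 0.819% of windows hold, and Nampt 1 AGGTCA at 151 bases, which 14% hold. In the windows of Usp2, Fbxl21 and Csnk1e none of these letters were found, and TTACGTAA, present in 0.113% of all windows, was in none of the 10. A match describes letters in a window and does not show a bound site.

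**Figure D1:**
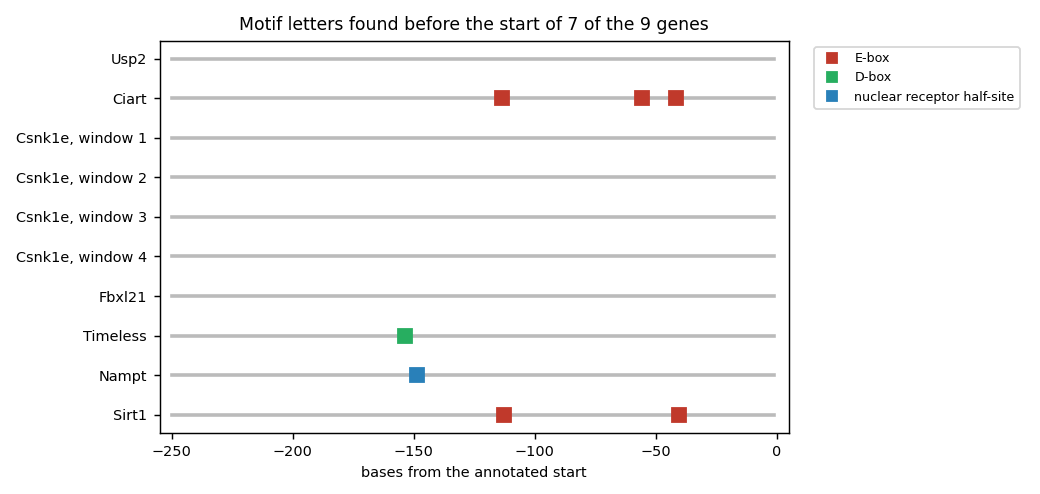
Each grey line is the 250 bases before an annotated start (horizontal axis, bases from the start) for the 10 windows of 7 genes, and squares mark E-box, D-box and nuclear receptor motif letters. Ciart carries 3 E-boxes and Sirt1 carries 2, while the windows of Usp2, Fbxl21 and Csnk1e carry no mark.

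Levels are given on the log2 scale relative to each array's 75th percentile of signal, and a difference is the sleep fragmented mean minus the control mean on that scale. Levels of different probes are not comparable with each other. A probe entered the test if all 3 arrays of either group had it well above background, which kept 25222 probes, 14550 named genes, and 10 probes of 7 of the 9 genes. By limma, 0 of the 25222 probes (0%) and 0 of the 7 genes had an adjusted p under 0.05; the smallest adjusted p of any probe was 0.534, and 683 probes (2.71%) had an unadjusted p under 0.05. The 2 genes that did not enter the test were Ciart and Fbxl21.

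The 3 sleep fragmented arrays shared 1 scan and the 3 control arrays another, so scan and group cannot be told apart for any difference given here. The share of probes well above background ran from 59.2% to 72.6% and was lowest on sleep fragmented replicate 1. That array also had the dimmest signal, with a 75th percentile of 127 in scanner units, where the other arrays had 212 to 262. Replicate 2 stood apart in both groups: it was the lowest array of its group for 52.1% of named genes in the sleep fragmented group and 56.6% in the control group. The summed level of 3 atrial markers (Myl7, Myl4 and Nppa) was also highest there, at 282 times the 75th percentile on sleep fragmented replicate 2 (31.5 and 58.6 on the others) and 201 on control replicate 2 (14.7 and 51.6 on the others). All 10 heart muscle markers were measured. Their summed levels were 794 to 1359 in the sleep fragmented group and 804 to 997 in the control group. These levels do not show that the arrays held equal shares of ventricular and atrial tissue. Summed levels of 5 erythroid markers were 160 to 390 in the sleep fragmented group and 103 to 115 in the control group, and those of 5 proliferation markers 1.66 to 2.45 and 1.22 to 1.53. The part of the other cells in the differences below was not tested, and fewer cells of a type cannot be told apart from less RNA per cell.

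Ciart, also known as Chrono, encodes a repressor that binds Clock and Bmal1 on E-boxes and is itself an E-box output. Its probe was well above background on 2 of the 3 sleep fragmented arrays and on 0 of the 3 control arrays. The level was -0.99, -3.49 and -1.06 in sleep fragmented replicates 1, 2 and 3, against -4.21, -5.96 and -5.21 in control replicates 1, 2 and 3. In scanner units the signal was 64.0, 20.6 and 102 in the sleep fragmented samples, against 14.1, 4.14 and 5.81 in the control samples. The groups did not overlap, the sleep fragmented arrays being higher, and sleep fragmented replicate 2, not well above background, lay nearest to the controls.

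Because no control array had Ciart well above background, its fold change is given against a background reference and is approximate. The measured means were -1.85 ± 1.43 in sleep fragmented and -5.13 ± 0.88 in control hearts (SD, n = 3 each). Against the lowest signal counted as well above background on each control array (mean -3.53), the sleep fragmented mean was 3.21-fold higher. This reference does not strictly limit the fold. On sleep fragmented replicate 2 the lowest such signal was -3.60, and Ciart at -3.49 lay above it without being well above background. The sleep fragmented mean includes that value. Against the same reference the value was 5.67-fold without sleep fragmented replicate 2 and 2.38-fold without sleep fragmented replicate 1. With no filter on dim probes the limma difference was 3.28 ± 0.71 (SE), with an adjusted p of 0.842 and an unadjusted one of 0.00169, and it did not pass. Detection on 2 or more sleep fragmented and on 0 control arrays was seen for 196 of 39429 probes (0.497%), and the opposite pattern for 159 (0.403%). Among the 14207 probes too dim for the test, 7.07% lay higher on every sleep fragmented array.

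**Figure D2:**
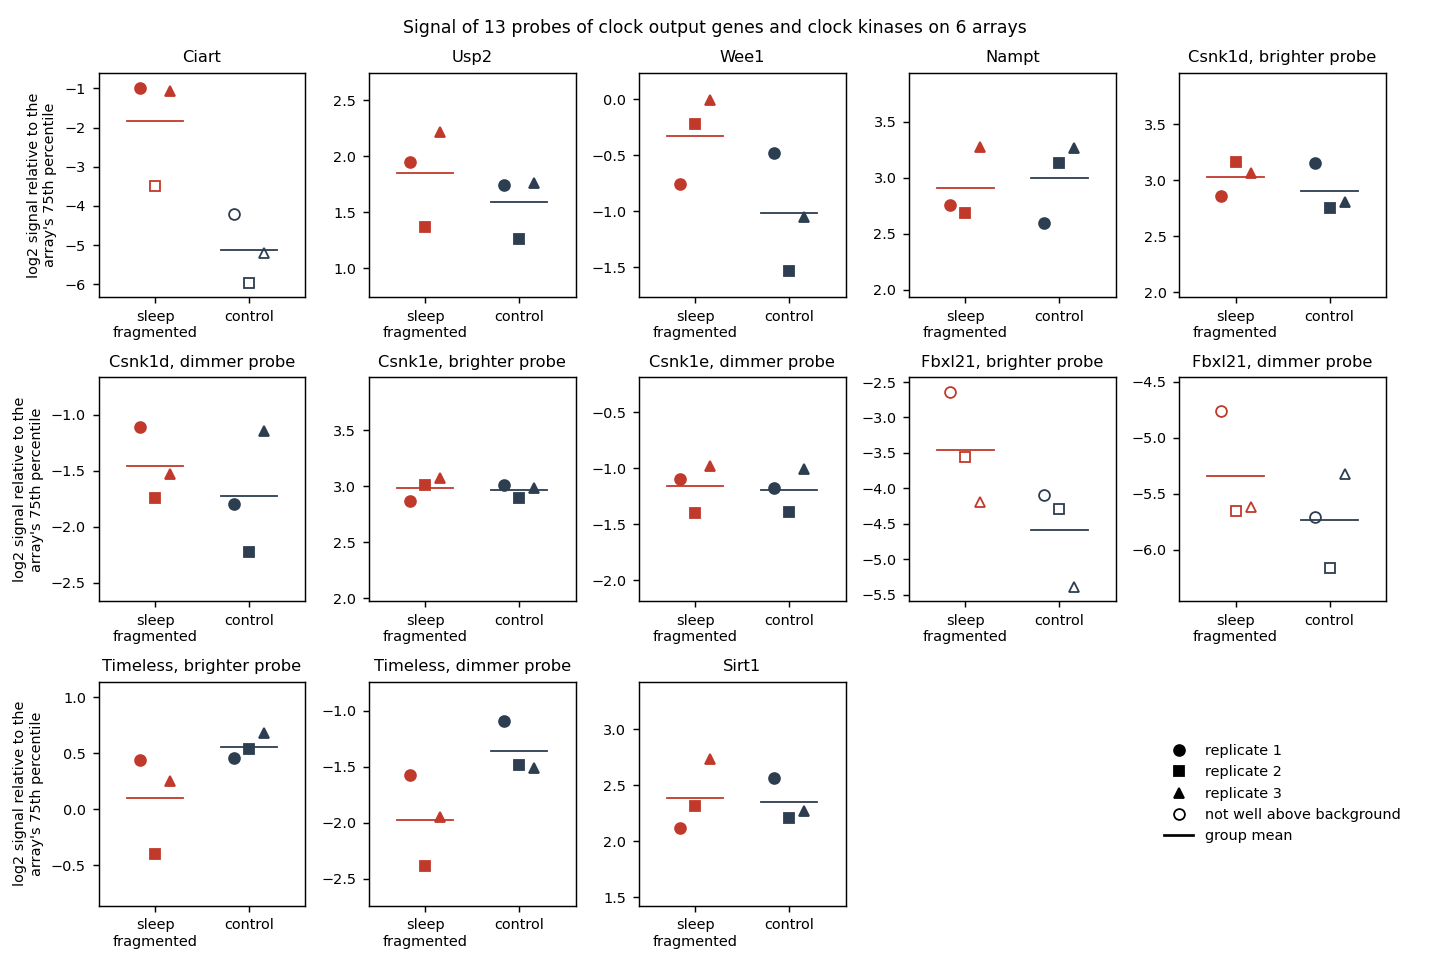
Each panel is 1 probe, with the log2 signal relative to the array's 75th percentile on the vertical axis (each panel has its own range), sleep fragmented arrays in red on the left and control arrays in dark blue on the right. Marker shapes give the replicate, open markers are not well above background and bars are group means. Ciart is open on all control arrays and filled on 2 sleep fragmented arrays, both Timeless probes lie lower on all sleep fragmented arrays, and the brighter Csnk1e probe lies between 2.87 and 3.08 on all arrays.

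Wee1 encodes the kinase that holds Cdk1 inactive before mitosis, and in mouse liver its gene is a known E-box output. Its level was -0.75, -0.22 and -0.0011 in sleep fragmented replicates 1, 2 and 3, against -0.47, -1.53 and -1.05 in control replicates 1, 2 and 3. Replicates 2 and 3 of the sleep fragmented group lay above all controls, and replicate 1 lay below control replicate 1, so the groups overlapped. The mean was -0.32 ± 0.39 in sleep fragmented and -1.02 ± 0.53 in control hearts (SD, n = 3 each). The difference was 0.69 ± 0.30 (SE), or 1.62-fold with a 95% interval from 1.01 to 2.60, with a limma adjusted p of 0.949 and an unadjusted one of 0.048.

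Wee1 was the 1 gene of the 7 whose brightest probe had an unadjusted p under 0.05, where 2.71% of named genes did (1.69% higher and 1.02% lower). That count rests on single arrays and on the scaling. It was 0 when control replicate 2 was left out (Wee1 difference 0.44), control replicate 3 (0.68), sleep fragmented replicate 2 (0.64) or sleep fragmented replicate 3 (0.53), and also 0 with quantile normalization (0.62). The barcodes recorded with the arrays end in a number that arrays 1, 2 and 3 of the 2 groups share, and within those pairs the Wee1 difference was -0.28, 1.31 and 1.04.

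Usp2 encodes a ubiquitin-specific protease that acts on Period and Cryptochrome proteins and is rhythmic in most mouse tissues. Its level was 1.95, 1.37 and 2.22 in sleep fragmented replicates 1, 2 and 3, against 1.75, 1.26 and 1.76 in control replicates 1, 2 and 3. The groups overlapped, since sleep fragmented replicate 2 lay below 2 of the controls, although in each pair of like-numbered arrays the sleep fragmented one was higher, by 0.21, 0.11 and 0.46. The difference was 0.26 ± 0.26 (SE), or 1.19-fold with a 95% interval from 0.793 to 1.80, and it did not pass (limma adjusted p = 0.949). Replicate 2, highest in atrial markers, was the lowest for Usp2 in both groups. The difference was 0.50 without sleep fragmented replicate 2, but 0.09 without control replicate 2 and 0.07 without sleep fragmented replicate 3. It was 0.04 with median scaling.

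Nampt catalyses the rate-limiting step that recycles nicotinamide into NAD, and in mouse liver its gene is driven by Clock and Bmal1. Its level was 2.75, 2.69 and 3.27 in sleep fragmented replicates 1, 2 and 3, against 2.59, 3.13 and 3.26 in control replicates 1, 2 and 3. The groups covered nearly the same range. The difference was -0.09 ± 0.25 (SE), with a 95% interval of the fold from 0.636 to 1.39 (limma adjusted p = 0.966). Its sign depended on the setting: it was 0.02 without sleep fragmented replicate 2, 0.04 without control replicate 3 and 0.48 with array weights. The weighted fit rests mostly on control replicate 1 and sleep fragmented replicate 3. Adipocytes and neutrophils are rich in Nampt; 4 of 9 adipocyte markers (Plin1, Cidec, Lep and Slc7a10) did not enter the test, and the summed level of the other 5 was 64.1 to 115 in the sleep fragmented group and 70.3 to 75.9 in the control group. Most of that sum is Fabp4. Another of the 5, Cfd, had levels of -1.46, 4.23 and -0.14 in sleep fragmented replicates 1, 2 and 3, against -2.23, 3.14 and 0.45 in control replicates 1, 2 and 3, and Adipoq likewise was highest on replicate 2 of both groups (2.80 in sleep fragmented and 1.88 in control). The summed level of 5 neutrophil markers was 1.01 to 1.82 in the sleep fragmented group and 0.893 to 4.80 in the control group. The 4.80 was on control replicate 2, where S100a9 was at 1.63 (-1.82 and 0.14 on control replicates 1 and 3). S100a8 (-1.14), S100a9 (-1.24) and Retnlg (-0.34) had negative differences, and Cxcr2 (0.57) and Ngp (0.31) positive ones. Ngp was well above background on 3 sleep fragmented arrays but 1 control array, and Camp, Ltf and Mpo did not enter the test. The part of these cells in the Nampt values was not tested.

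Sirt1 encodes the deacetylase that uses this NAD. Its level was 2.12, 2.31 and 2.73 in sleep fragmented replicates 1, 2 and 3, against 2.56, 2.21 and 2.27 in control replicates 1, 2 and 3. The groups overlapped, with the lowest and the highest of the 6 values both in the sleep fragmented group. The difference was 0.04 ± 0.22 (SE), with a 95% interval of the fold from 0.730 to 1.45 (limma adjusted p = 0.982). Its promoter window is the one with 2 E-boxes shown above. The difference was -0.17 with median scaling and -0.08 with normexp background correction.

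All 4 probes of the casein kinase genes differed between the groups by less than their standard errors. Csnk1e, the kinase mutated in the tau hamster, had 2 probes; the brighter was at 2.87, 3.01 and 3.08 in sleep fragmented replicates 1, 2 and 3, against 3.01, 2.89 and 2.98 in control replicates 1, 2 and 3. The 6 values overlapped within a narrow band. The difference was 0.02 ± 0.17 (SE), and the 95% interval of the fold ran from 0.775 to 1.33 (limma adjusted p = 0.987). The dimmer probe differed by 0.03 ± 0.20 (SE). The sign of either probe turned under several settings, for example to -0.19 and -0.18 with median scaling.

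Csnk1d, whose product is the other main Period kinase, had 1 probe to each of 2 RefSeq transcripts. The brighter, to NM_027874, was at 2.86, 3.16 and 3.07 in sleep fragmented replicates 1, 2 and 3, against 3.16, 2.75 and 2.80 in control replicates 1, 2 and 3. The dimmer, to NM_139059, was at -1.11, -1.74 and -1.53 in the sleep fragmented replicates, against -1.80, -2.23 and -1.15 in the control replicates. The groups overlapped for both probes. The differences were 0.13 ± 0.20 and 0.27 ± 0.30 (SE), with 95% intervals of the fold from 0.803 to 1.49 and from 0.757 to 1.92, and neither passed (limma adjusted p = 0.951 and 0.949). With median scaling the brighter probe differed by -0.09.

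Fbxl21, which encodes an F-box protein that binds Cryptochromes, was not well above background on any array with either of its 2 probes. The brighter read -2.64, -3.55 and -4.19 in sleep fragmented replicates 1, 2 and 3, against -4.10, -4.29 and -5.39 in control replicates 1, 2 and 3. These values overlapped, and no fold change is given for signals at background.

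Timeless encodes a replication fork protein that also binds clock proteins in mammals. It was the 1 gene of the 7 whose groups did not overlap, and its values were lower on all sleep fragmented arrays with both of its probes. The brighter probe was at 0.44, -0.40 and 0.26 in sleep fragmented replicates 1, 2 and 3, against 0.46, 0.53 and 0.68 in control replicates 1, 2 and 3. The dimmer was at -1.57, -2.38 and -1.95 in the sleep fragmented replicates, against -1.09, -1.48 and -1.51 in the control replicates. On both probes sleep fragmented replicate 2 was the lowest of all arrays, and sleep fragmented replicate 1 lay just under the lowest control.

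For the brighter Timeless probe the mean was 0.10 ± 0.44 in sleep fragmented and 0.56 ± 0.11 in control hearts (SD, n = 3 each), a difference of -0.46 ± 0.24 (SE), or 1.38-fold lower (limma adjusted p = 0.949, unadjusted 0.0888). For the dimmer probe it was -0.61 ± 0.24, or 1.52-fold lower (limma adjusted p = 0.949, unadjusted 0.0349). Neither passed. Of all named genes 3.95% lay lower on every sleep fragmented array by their brightest probe and 3.44% higher. Of 3396 genes with 2 or more tested probes, 17 (0.501%) lay lower on every sleep fragmented array with each of their tested probes. Without sleep fragmented replicate 2 the difference of the brighter probe was -0.21 and that of the dimmer -0.40. With normexp background correction the dimmer probe differed by -0.21. Within the pairs of like-numbered arrays the brighter probe differed by -0.02, -0.94 and -0.43. Of the 10 proliferation markers 5 were tested, all with positive differences under each scaling tried (median 0.74), and Top2a, Aurkb, Bub1, Kif11 and Tpx2 were too dim. Plk1, 1 of the 5 tested and part of their summed level, was well above background on 3 sleep fragmented and on 2 of the 3 control arrays. It entered the test only through the sleep fragmented group. The part of dividing cells in the Timeless values was not tested.

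**Figure D3:**
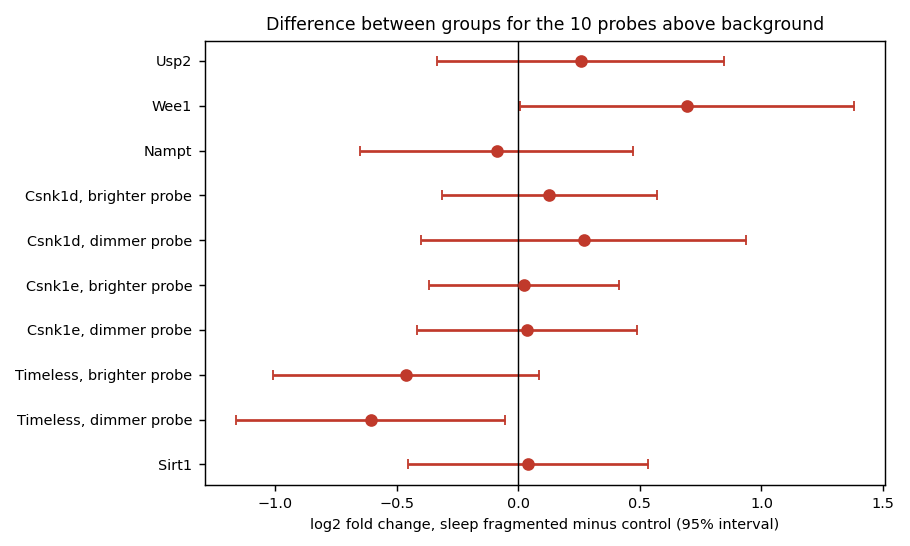
Points are the log2 fold changes (sleep fragmented minus control, horizontal axis) of the 10 tested probes and bars their 95% intervals from limma. Wee1 at 0.69 and the dimmer Timeless probe at -0.61 have intervals that leave out 0 before adjustment, and the other 8 intervals include it.

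Around these genes, lists of related genes were counted with the same fit; all had 0 genes past the adjusted threshold in either direction. Signs of small differences depend on the scaling, since the median difference over all tested probes was 0.08 as reported and -0.13 with median scaling. Of all named genes 59.4% were positive as reported, 26.9% with median scaling and 49.6% with quantile normalization, and 2.71% had an unadjusted p under 0.05 (1.69% with a positive and 1.02% with a negative difference). Over the 7 genes the median difference was 0.04, against 0.06 over all named genes, with 5 positive and 2 negative (2 and 5 with median scaling). Of the 9 clock repressors 7 were tested and all 7 were positive (median 0.40; 5 of 7 with median scaling); Per2 (1.09 ± 0.26) and Per1 (0.93 ± 0.25) had an unadjusted p under 0.05, where 1.69% of named genes did in that direction, and Bhlhe40 (0.51 ± 0.23) and Nr1d2 (0.40 ± 0.28) did not. Per2 was well above background on 3 sleep fragmented and on 2 of the 3 control arrays, so it entered the test only through the sleep fragmented group. Of the 3 D-box factors Hlf (1.07 ± 0.21) and Dbp (1.41 ± 0.35) had an unadjusted p under 0.05, against the same 1.69% of named genes, and Tef (0.38 ± 0.23) did not; all 3 were positive under each scaling tried. Of the 8 activators and D-box or receptor opponents 7 were tested, with a median of -0.06 and none under 0.05; Arntl was at -0.64 ± 0.33, Nfil3 at -0.50 ± 0.28, Clock at -0.30 ± 0.20 and Arntl2 at 0.44 ± 0.30.

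Dbp, a direct E-box target like Ciart, was at 2.93, 1.70 and 2.96 in sleep fragmented replicates 1, 2 and 3, against 1.47, 0.79 and 1.11 in control replicates 1, 2 and 3. As for Ciart and Usp2, replicate 2 was the lowest sleep fragmented array. Among the 10 tested clock repressors and D-box factors 7 had their lowest sleep fragmented value there, where 52.1% of all named genes did.

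Other enzymes that modify clock proteins had small differences too. Of 17 such genes (casein kinases 1 and 2, Gsk3, AMP kinase, F-box and other ligases and deubiquitinases) all were tested and 0 had an unadjusted p under 0.05; 5 were positive and 12 negative, between -0.24 and 0.11 (0 and 17 with median scaling). Csnk1g1 (-0.23 ± 0.19), Fbxw7 (-0.24 ± 0.22), the casein kinase 2 gene Csnk2a1 (-0.17 ± 0.17) and Usp7 (-0.15 ± 0.17) ranked first by p. Csnk2a1 and Usp7 lay lower on every sleep fragmented array, as 3.95% of named genes did.

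Beside Wee1, the list of the Cdk1 switch had 6 of 10 genes tested. The cyclin genes Ccna2 (0.97 ± 0.27) and Ccnb2 (1.36 ± 0.60) had the largest values. Ccna2 had an unadjusted limma p of 0.00632 and lay higher on every sleep fragmented array. Among all named genes 1.69% had an unadjusted p under 0.05 in that direction, and 3.44% lay higher on every such array. Both cyclin genes were well above background on 2 of the 3 control arrays, so they entered the test only through the sleep fragmented group. Pkmyt1, the membrane-bound relative of Wee1, was at 0.19 ± 0.18 and Cdk2 at 0.14 ± 0.18 (-0.09 with quantile normalization), and Cdk1, Cdc25b, Cdc25c and Ccnb1 were too dim. Of 6 partners of Timeless at the replication fork 5 were tested and 0 had an unadjusted p under 0.05. Tipin, its direct binding partner, was at -0.10 ± 0.19, the kinase genes Chek1 at -0.43 ± 0.32 and Atr at -0.13 ± 0.18, and Atrip at 0.12 ± 0.18.

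Beside Nampt, 11 of 15 genes of NAD synthesis were tested, with a median of 0.12 (-0.10 with median scaling and -0.03 with quantile normalization) and 0 at an unadjusted p under 0.05. The NAD kinase genes Nadk (-0.38 ± 0.18, lower on every sleep fragmented array) and Nadk2 (-0.31 ± 0.21) and the synthesis genes Qprt (0.28 ± 0.22) and Nmnat3 (-0.24 ± 0.20) ranked first by p. Lying lower on every sleep fragmented array was seen for 3.95% of named genes. Of 12 genes that consume NAD or methylate nicotinamide, all tested, 1 had an unadjusted p under 0.05: Nnmt, which methylates nicotinamide and so competes with Nampt for it, at 0.69 ± 0.27 (unadjusted p = 0.0288) and higher on every sleep fragmented array. Of all named genes 1.69% had such a p in that direction and 3.44% lay higher on every sleep fragmented array. Sarm1 was at 0.59 ± 0.31, Sirt5 at -0.24 ± 0.20 and Parp2, well above background on 2 sleep fragmented and 3 control arrays, at -0.26 ± 0.24. Of 9 partners and targets of Sirt1, 7 were tested and all 7 were positive, by 0.0070 to 0.49 (3 of 7 with median scaling and 6 with quantile normalization), with 0 at an unadjusted p under 0.05; Crebbp was at 0.35 ± 0.21, Trp53 at 0.49 ± 0.33, Ep300 at 0.25 ± 0.20 and Ppargc1a at 0.18 ± 0.26.

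**Figure D4:**
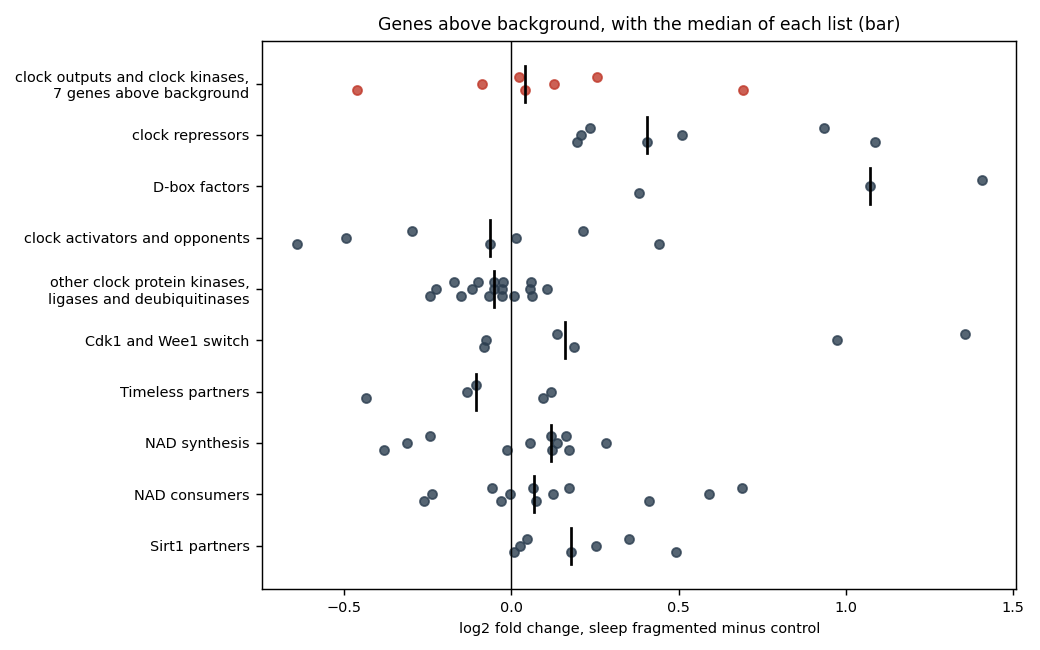
Each point is a tested gene at its log2 fold change (sleep fragmented minus control, horizontal axis), by list, and the vertical bars are list medians. The clock repressors (median 0.40) and D-box factors (median 1.07) lie to the right (with median scaling 5 of the 7 repressors are positive), while the 7 tested clock outputs and kinases (median 0.04) and the other clock protein kinases and ligases lie around 0.

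As a description of how the genes moved over the 6 arrays, Pearson's r was computed between each of the 7 genes and 13839 other named genes; the arrays share their normalization, and many genes have a high r with any given gene. Usp2 was most like Cd163 (0.993) and Olfr1443 (0.992), with 350 genes over 0.9, and among 17 clock genes most like Nr1d2 (0.931). Wee1 was most like Wdcp (0.991) and Sh2b3 (0.989), and Bhlhe40 among the clock genes (0.883). Timeless was most like Gpha2 (0.998) and Lor (0.993), and least like Per1 among the clock genes (-0.732). Csnk1d followed Poc1b and Kat6a (0.991 each) and Csnk1e followed Man2c1 (0.994) and Mtmr10 (0.993). Nampt followed Htatsf1 (0.991) and Mlx (0.988), and Sirt1 followed Zfp341 (0.984) and Btbd9 (0.981). Between the genes themselves r was highest for Csnk1e with Sirt1 (0.884) and Csnk1d with Wee1 (0.869), and lowest for Csnk1d with Timeless (-0.675).

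Over the scaling, filter, model and single-array alternatives the Wee1 difference stayed between 0.44 and 0.96, that of the brighter Timeless probe between -0.68 and -0.21, that of the dimmer between -0.82 and -0.21, and that of Usp2 between 0.04 and 0.50. Csnk1e ranged from -0.19 to 0.08, Sirt1 from -0.17 to 0.18, Csnk1d from -0.09 to 0.25 and Nampt from -0.30 to 0.48, all on both sides of 0.

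**Figure D5:**
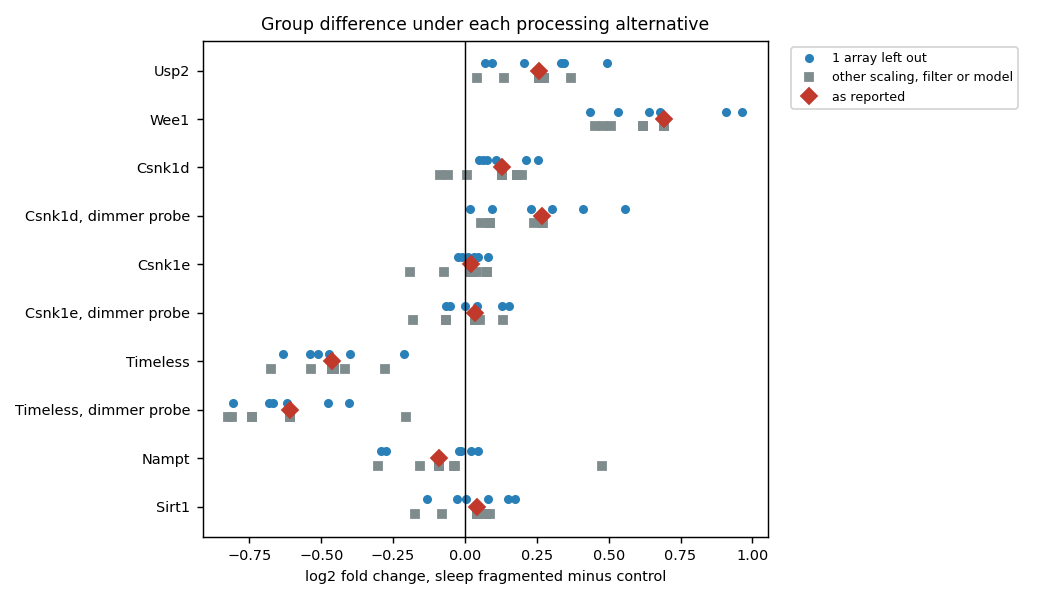
Red diamonds are the reported log2 fold changes (sleep fragmented minus control, horizontal axis), blue circles the values with 1 array left out and grey squares those with another scaling, filter or model, for the 10 tested probes. Wee1, Usp2, the dimmer Csnk1d probe and both Timeless probes keep their side of 0, and Csnk1e, Nampt, Sirt1 and the brighter Csnk1d probe cross it.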

How the data were processed

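Scanner output was deposited for 6 one-colour arrays. Per the file headers, the intensity values (background-subtracted, detrended spot signals, plus median spot and local background signals) were extracted from design 026655 with version 11.0.1.1 of Agilent Feature Extraction. Version 10.5.1.1 stands in the submitters' processing notes. The deposited flags (well above background, saturated, outlying) are other values, 0 or 1. The authors' deposited series table holds log2 values with no processing step named in the labels; its columns have medians of 5.54 and correlate with the scanner values at 0.998 or more, and it served as an alternative.

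From the processed signal, log2 values were formed and scaled by subtracting the 75th percentile of the array's non-control spots. Control and outlier spots (180 to 240 per array) were dropped, spots of a probe averaged, and probes named by RefSeq accession (27234 of 39429; gene table of GRCm38.p6). A probe counted as well above background on an array if at least 50% of its spots were so flagged. The brightest kept probe stood for a gene. No tested probe of the 9 genes had a missing value. No spot was saturated (0 on each array). Groups were compared with limma 3.58.1 in R 4.3.3 (two-sided, Benjamini-Hochberg over all kept probes). The code was run on simulated independent normal values without array-wide or scan effects. That run checks the code and not how the fit behaves on these arrays. The number of arrays limits the precision; an exact permutation test of 3 arrays against 3 cannot go below 0.1. Normexp used median spot signals, since these files hold no mean signal.

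The genes and lists were chosen with earlier results of these data known, so no test over a list was made. Named genes were the 9, the 4 smallest p of each list, and the 2 most similar genes. Dbp's values per array, and the values and detection given for single marker genes, were chosen after they were seen. RefSeq proteins were not used here.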

Additional observations from a re-analysis of the deposited data

How the results depend on the processing

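Of the genes described, 0 passed limma's adjusted threshold under any of the 15 alternatives. The smallest adjusted p was 0.0502, for the dimmer Timeless probe with array weights. Those weights were 6.38 for control replicate 1, 3.33 for sleep fragmented replicate 3 and 0.33 to 0.58 for the other arrays. The weighted fit therefore rests mostly on 1 array of each group. In the main fit, the count refers to all tested probes. The count of probes past the adjusted threshold was 0, but 3 with normexp background correction, 109 with array weights and 4 with the replicate block. At an unadjusted limma p under 0.05 and 1.5-fold the count was 473. It was 179 with normexp, 1325 with array weights, 1344 with no filter on dim probes and 860 with the replicate block. With 1 array left out it was 329 to 2694 (2694 without control replicate 3, 1022 without sleep fragmented replicate 2). The count of the genes at an unadjusted p under 0.05 was 1 (Wee1; Timeless with median scaling), but 0 with quantile normalization or the authors' table, 2 with normexp, 2 with no filter (Ciart and Fbxl21), 3 with array weights (Usp2, Wee1 and Nampt), and 0 to 2 with 1 array left out. The median difference of all tested probes was 0.08, and -0.13 with median scaling.

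Directions turned in 18 of 153 gene-by-setting values, none of them past the threshold, and the cause was not tested. The 153 include values that could not turn. Another filter, the trended and robust prior and the replicate block left each difference exactly as in the main fit. The authors' table gave nearly the same differences as quantile normalization. The share therefore understates how often a different scaling or set of arrays turned a sign. With median scaling the differences were -0.0866 for Csnk1d, -0.19 for Csnk1e (dimmer probe -0.18) and -0.17 for Sirt1; with normexp -0.0716 for Csnk1e and -0.0790 for Sirt1; with array weights -0.0593 for Csnk1d and 0.48 for Nampt; with quantile normalization and the authors' table -0.0665 and -0.0662 for the dimmer Csnk1e probe. With 1 array left out they ranged from -0.0244 to 0.0810 for Csnk1e, -0.0661 to 0.15 for its dimmer probe, -0.29 to 0.0441 for Nampt and -0.13 to 0.18 for Sirt1. The measured Ciart difference of 3.28 was 1.20 with normexp, whose offset compresses dim signals, and 3.00 to 3.07 with the other scalings (alternatives chosen after seeing the data), with no overlap of the groups in any.

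The replicate numbers were not taken as pairs: the deviations of like-numbered arrays correlated at 0.06, 0.55 and 0.21, and replicates 1 and 3 of the sleep fragmented group did not correlate best with their own number. With the replicate block the Wee1 difference was 0.69 with a limma adjusted p of 0.6095, and the block changed no call among the genes. The block by barcode number is the same fit. Ciart was not well above background on any control array nor on sleep fragmented replicate 2, and Fbxl21 on no array. Their levels there are not firmly measured.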
